A study of Mus musculus with 12 samples.

Results

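The clustered protocadherins are a family of cell adhesion genes that lie side by side on mouse chromosome 18. They were picked from the gene table by symbol, as every row named after an alpha, beta or gamma clustered protocadherin, which gave 57 of the 36255 genes. The alpha cluster has 13 members (GRCm38, positions 36930184 to 37187661), the beta cluster has 22 (37264938 to 37524479) and the gamma cluster has 22 (37661793 to 37841873). RNA-seq of polyadenylated RNA from mouse embryos gave whole-number read counts for 11 libraries. At 9.5 days post coitum (dpc) there were 2 libraries labelled Skp1aKO, 2 labelled Skp1acont, 1 labelled Skp1acont PI, 2 labelled wt and 2 labelled wt PI. A further 2 wt libraries were from 9.0 dpc. The series concerns SKP1A, an adaptor of SCF ubiquitin ligases, and its part in the turnover of the Polycomb complex PRC2. No strain, allele or driver of a deletion can be read from the labels. Each carries the tag "mb", which is left unexplained, as are "PI", "lot" and "cont". Whether "mb" stands for a part of the embryo is not known, and nothing else in the labels names a part. Each wt, wt PI, Skp1acont and Skp1aKO pair holds a lot 1 and a lot 2 library, called replicates 1 and 2, and nothing says whether they came from separate embryos, so each p-value is set against library-to-library spread that may be technical only.

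Clustered protocadherins are single-pass membrane proteins of the cadherin superfamily that bind the same isoform on a neighbouring cell. In the alpha and gamma clusters each gene is a large variable exon with its own promoter, spliced to constant exons shared by the whole cluster, while beta genes consist of a variable exon alone. Neurons switch on different sets of members, a choice that depends on DNA methylation, CTCF and cohesin, and the resulting surface code lets a neuron tell its own branches from those of other cells. The C-type members at the end of the alpha and gamma clusters (Pcdhac1, Pcdhac2, Pcdhgc3, Pcdhgc4 and Pcdhgc5) are not part of that random choice.

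Total counts ran from 2320599 to 11607085 per library, so the limit that a count of 0 allows (3 counts) was 0.323 to 1.1 CPM (read counts scaled to the library size, here by TMM). Skp1a, the targeted gene, was at 199 and 212 CPM in the libraries labelled Skp1aKO, at 303 and 104 CPM in Skp1acont, at 273 CPM in Skp1acont PI and at 930 to 1337 CPM in the 6 wt libraries. Both Skp1aKO values fell inside the Skp1acont range, and this gene did not separate the 2 labels. Mitochondrial genes took 5.98% to 15.8% of counts in the 5 libraries with a Skp1a label and 2.44% to 4.01% in wt. A background rate was taken from 2000 receptor genes of smell, pheromone sensing and taste, whose known roles lie in later sensory organs: it is the pooled count per kb of exon over the 1000 genes in the middle of their distribution. This chemoreceptor rate was 0.229 to 0.980 CPM per kb with a Skp1a label and 0.138 to 0.190 CPM per kb in wt, so the label and the rate cannot be told apart. Skp1acont replicate 2 stood highest on both measures.

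The family was read at low depth. A member had between 2 and 779 counts over all 11 libraries together, with a median of 37, and 8 members had no count in any wt library. The members span 75.1 kb of exon in the alpha cluster, 92.7 kb in beta and 116.5 kb in gamma, but 40.6% of the alpha and 50.3% of the gamma exon sequence belongs to a single gene, against 96.9% in beta. Counts in the shared constant exons could not be assigned to a member with certainty, and how they were counted is not given in the sources used here. Values on exon length that no other gene shares divide the whole count by that length. They are not counts of reads on those bases alone. Pcdhga10 has no exon sequence of its own, and Pcdha4 has 404 of 5768 bases. In bulk RNA of this kind, fewer cells of a type and less RNA per cell cannot be told apart.

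Pcdhgc4, a C-type gamma member needed for the survival of many interneurons, had the highest level of the family in wt embryos at 2.55 ± 0.41 CPM per kb of exon (SD, n = 6). Its 6 wt libraries held 13.1 and 17.5 CPM at 9.0 dpc, 13.2 and 10.96 CPM at 9.5 dpc and 15.5 and 15.2 CPM with PI, so the 9.0 dpc libraries overlapped the other groups while both PI libraries were above both 9.5 dpc libraries. Next came Pcdhga12, the last variable gamma gene before the C-type exons, at 0.73 ± 0.38 CPM per kb over the wt libraries. Pcdha4 followed at 0.31 ± 0.41 CPM per kb, with an SD above its mean because its counts sat in the 9.5 dpc libraries. The highest beta members on this scale were Pcdhb5 at 0.208 ± 0.101 CPM per kb, Pcdhb14 at 0.191 ± 0.099, Pcdhb16 at 0.156 ± 0.056 and Pcdhb22 at 0.154 ± 0.027. The differences among these 4 were smaller than their spread over libraries. Further members among the 4 highest of their cluster were Pcdha1 at 0.177 ± 0.157, Pcdhac2 at 0.119 ± 0.155, Pcdha9 at 0.0877 ± 0.0999, Pcdhgc3 at 0.166 ± 0.101 and Pcdhgb5 at 0.142 ± 0.040 CPM per kb. With the whole count of each member divided by only the exon length that no other gene shares, Pcdha4 ranked first and Pcdhgc4 ranked 2nd of the family.

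**Figure D1:**
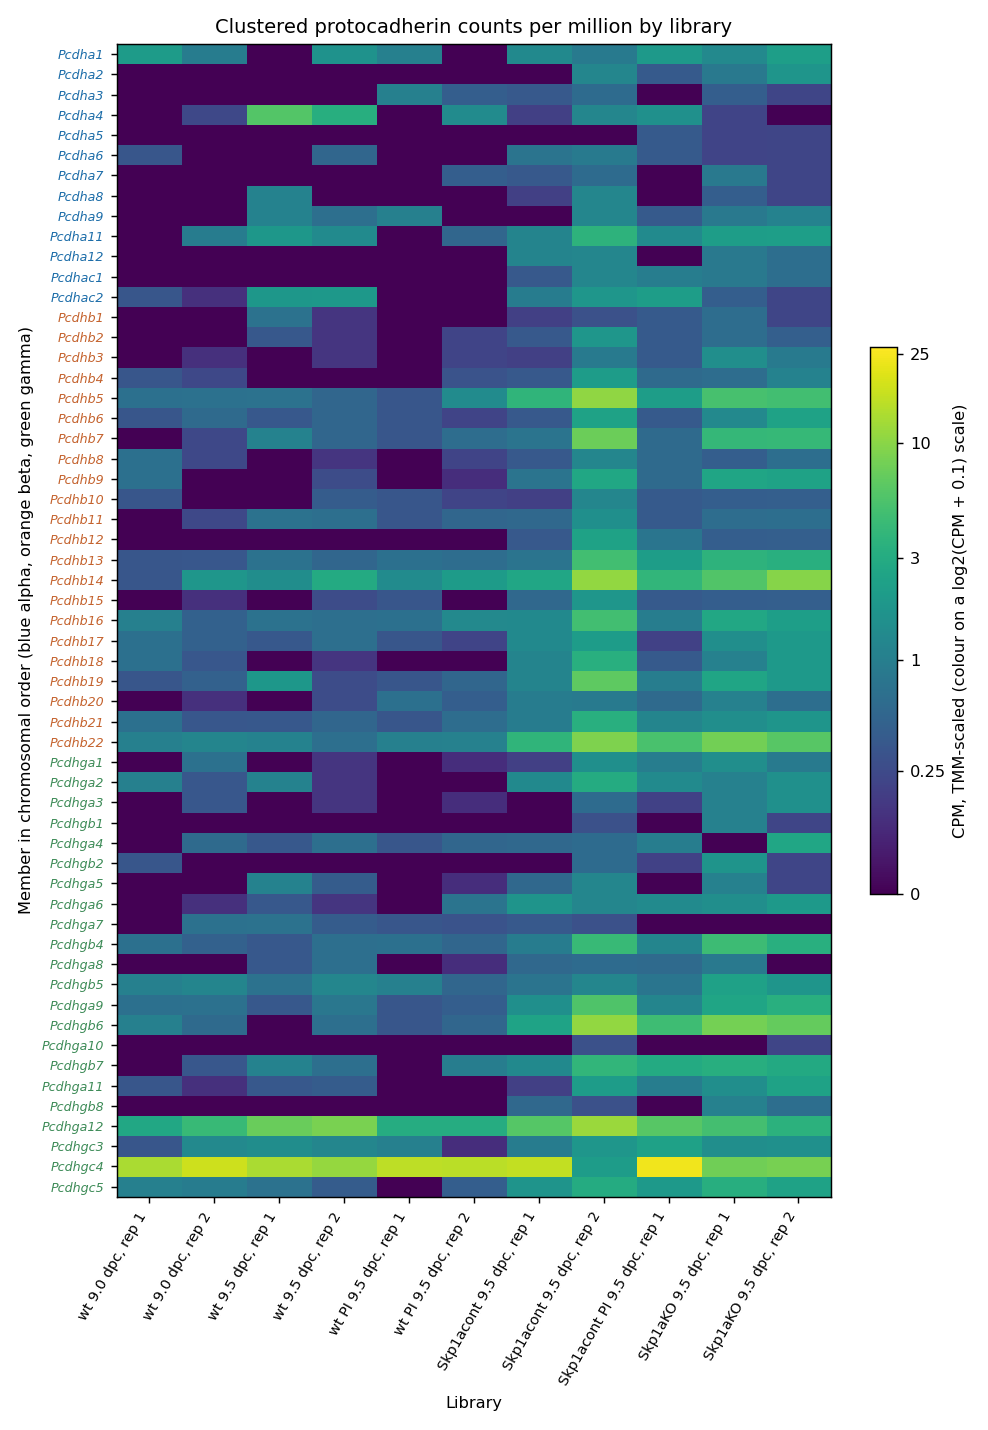
Heat map of the 57 members (rows, in chromosomal order, names coloured by cluster) in the 11 libraries (columns). Colour gives TMM-scaled CPM on a log2(CPM + 0.1) scale; Pcdhgc4 is bright in every library but Skp1acont replicate 2, and most beta rows are brighter in the columns with a Skp1a label than in wt.

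Of the 4 C-type members besides Pcdhgc4, Pcdhac1 was at 0 in all 6 wt libraries and held 2 to 5 counts in each library with a Skp1a label. Pcdhac2 held 5 and 14 counts in the wt libraries of 9.5 dpc, 1 and 1 at 9.0 dpc and 0 and 0 with PI. Pcdhgc3 ran from 1 to 11 counts and Pcdhgc5 from 0 to 8 counts across the wt libraries, which is close to or under the limit that a count of 0 allows in the shallower ones.

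The beta cluster as a whole ran close to the chemoreceptor rate. Its summed level was 0.248 and 0.889 CPM per kb in Skp1acont, 0.255 in Skp1acont PI, 0.506 and 0.529 in Skp1aKO and 0.0818 to 0.118 in the 6 wt libraries. Every library with a Skp1a label was therefore above every wt library. Divided by the count that the chemoreceptor rate gives for the same exon length in the same library, however, the beta counts were 0.908 to 1.08 times that background with a Skp1a label and 0.552 to 0.833 times in wt. All 22 beta members had at least 1 count in each of the 5 libraries with a Skp1a label, and 13 to 20 of them did in a wt library.

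The gamma cluster stood above background in wt, mostly through Pcdhgc4. Its summed counts were 1.08 to 1.85 times the chemoreceptor background in the 6 wt libraries and 0.50 to 1.79 times in the 5 with a Skp1a label, where Skp1acont replicate 2 was lowest and Skp1acont PI highest. Pcdhgc4 supplied 38.6% to 68.2% of the gamma counts in wt. With a Skp1a label it supplied 42.5% (exact 95% interval 35.6% to 49.7%) and 3.70% (1.5% to 7.48%) in Skp1acont, 46.2% (40.1% to 52.4%) in Skp1acont PI, and 15.5% (11.2% to 20.8%) and 17.9% (13.0% to 23.8%) in Skp1aKO. The intervals cover counting error only. Without Pcdhgc4 the gamma ratio was 0.414 to 1.08 in wt and 0.506 to 1.01 with a Skp1a label, and on exon length that no other gene shares it was 0.832 to 2.17 in wt and 1.02 to 2.04 with a Skp1a label. These sums still include Pcdhga12, which lay above background in every wt group.

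The alpha cluster held the fewest counts and moved most with stage in wt. It had 8 and 19 counts at 9.0 dpc, 32 and 69 at 9.5 dpc and 9 and 26 with PI, or 0.0334 ± 0.0049, 0.140 ± 0.023 and 0.0393 ± 0.0029 CPM per kb (SD, n = 2 each). Both wt libraries of 9.5 dpc were above the other 4. Of their counts, Pcdha4 held 16 and 24 and Pcdhac2 held 5 and 14. Only 5 and 6 of the 13 members had a count there, so the rise is not one of the whole cluster. Against the chemoreceptor background the alpha counts were 1.13 and 0.853 times at 9.5 dpc and 0.196 to 0.279 times in the other wt libraries. In the libraries with a Skp1a label they were 0.213 to 0.512 times background. On exon length that no other gene shares, the alpha ratios were 0.483 to 2.79 in wt and 0.526 to 1.26 with a Skp1a label.

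**Figure D2:**
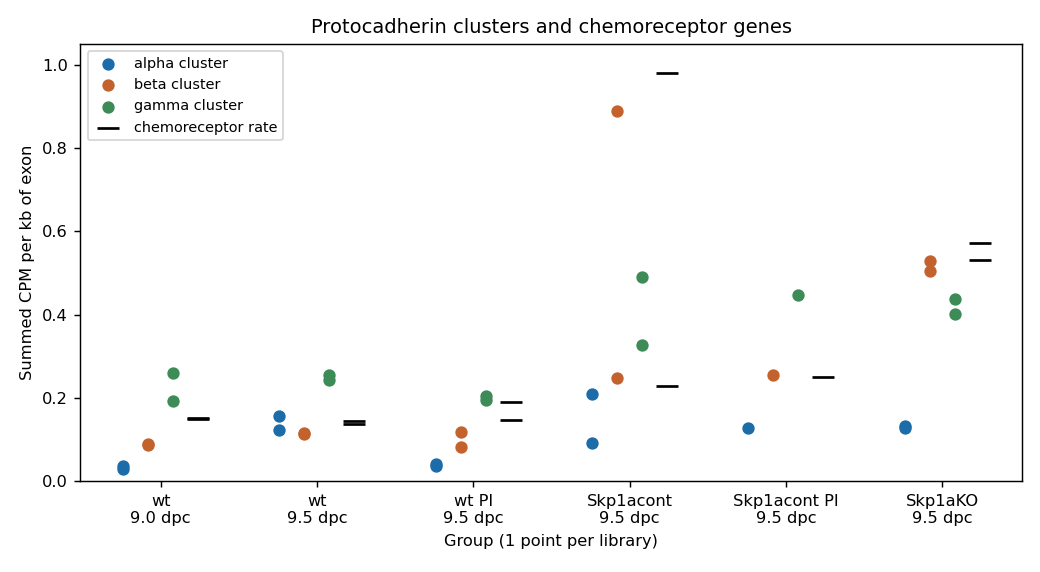
Summed CPM per kb of exon (vertical axis) of the alpha, beta and gamma clusters, with 1 point per library, and the chemoreceptor rate of the same libraries (black dashes), by group. Beta points lie beside the dashes in the groups with a Skp1a label, gamma points lie above the dashes in wt, and alpha points are highest within wt at 9.5 dpc.

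Single members were set against the same background. In wt at 9.5 dpc, Pcdhgc4 had 117 counts in both libraries together, 14.4 times the background for its length, Pcdhga12 had 84 counts (8.67 times) and Pcdha4 had 40 counts (4.77 times). Pcdhac2 at 2.22 times and Pcdhb14 at 2.06 times were the other members above a ratio of 2. Those 5 of 57 members were 8.77% of the family. Of the chemoreceptor genes in the same libraries, 25.6% were above that ratio. In the libraries labelled Skp1aKO, Pcdhgb6 stood at 2.99 times background, Pcdhgc4 at 2.64, Pcdhb5 at 2.57 and Pcdhb7 at 2.14. Those 4 of 57 members were 7.02% of the family, and 25.3% of the chemoreceptor genes exceeded the same ratio there. The background rate was built from the middle of the distribution of those same chemoreceptor genes, so their share above it is partly set by that choice. The shares therefore cannot say whether the family was more or less often above background than other genes. Pcdha4 had 1 count in the 2 Skp1aKO libraries, 0.0342 times the background for its whole exon length. Set against the background for only the 404 bases that are its own, the same count gave a ratio of 0.488 (95% counting interval 0.0124 to 2.72), which cannot be told from background. In wt at 9.5 dpc that ratio was 68.1 (48.7 to 92.8). Reads on those bases alone were not counted, so each ratio is the most that these bases could show.

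**Figure D3:**
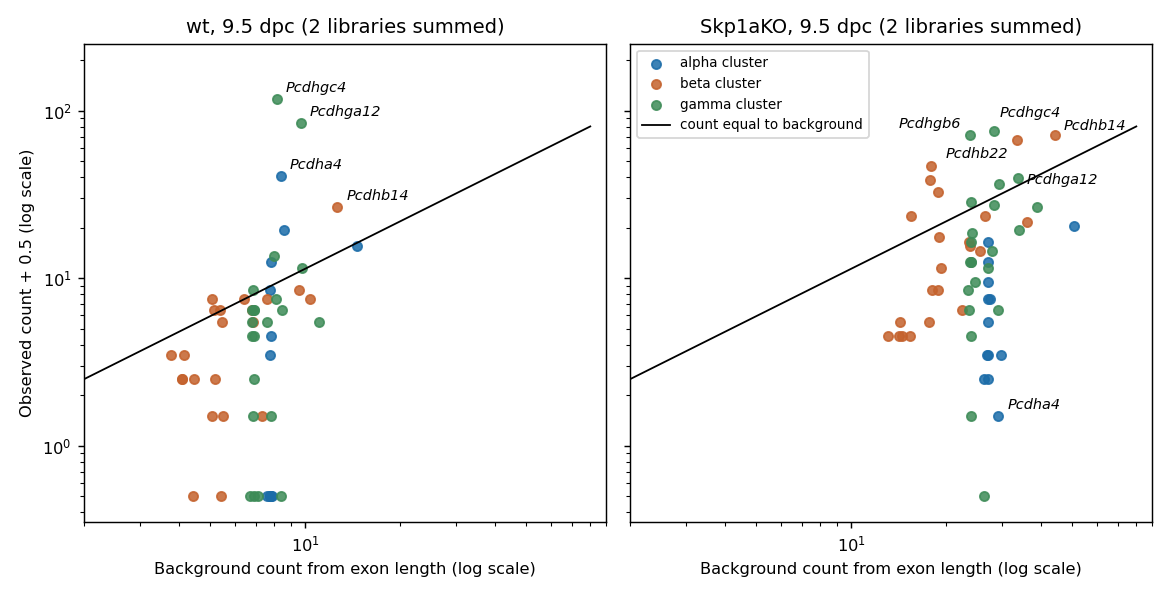
Summed count of each member in 2 libraries plus 0.5 (vertical, log scale) against the count that the chemoreceptor rate gives for its exon length (horizontal, log scale), for wt at 9.5 dpc and for Skp1aKO, with the line marking a count equal to background. Pcdhgc4, Pcdhga12 and Pcdha4 lie far above the line in wt at 9.5 dpc, and Pcdha4 lies below it in Skp1aKO on this whole-exon scale (0.0342 times background, 0.488 when the same count is set against its own bases only).

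The wt libraries of 9.5 and 9.0 dpc ask how the family differed between those stages in embryos labelled wt. Pcdha4 and Pcdhga12 were higher at 9.5 dpc. Pcdha4 was at 5.87 and 3.25 CPM at 9.5 dpc and at 0 and 0.237 CPM at 9.0 dpc, with no overlap. That is 40 counts against 2, a 22.4-fold difference with a 95% counting interval of 5.81 to 191, and a log2 fold change of 4.49 ± 1.02 (SE, adjusted p = 0.0107). Pcdhga12 was at 7.34 and 8.66 CPM at 9.5 dpc and at 2.77 and 4.27 CPM at 9.0 dpc, also without overlap, a log2 fold change of 1.15 ± 0.29 (adjusted p = 0.0139). These were 2 of the 4 members that passed the filter on low counts among wt libraries, in a fit that called 31.7% of 13126 genes and 15% as higher. The other members in that fit were Pcdhgc4, with a log2 fold change of -0.38 ± 0.19 (adjusted p = 0.164), and Pcdhb14, with 0.90 ± 0.61 (adjusted p = 0.308). Pcdhb14 was at 1.47 and 2.98 CPM at 9.5 dpc and at 0.346 and 1.78 CPM at 9.0 dpc, so its groups overlapped.

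A further 53 members were too low for that filter. Without it, Pcdha9 and Pcdhac2 were called higher at 9.5 dpc as well, with log2 fold changes of 5.25 ± 1.78 (adjusted p = 0.0255) and 3.30 ± 0.97 (adjusted p = 0.00653). Pcdha9 rested on 3 and 5 counts against 0 and 0, and Pcdhac2 on 5 and 14 counts against 1 and 1. Pcdha4 kept its direction in each alternative but missed the threshold without either wt library of 9.0 dpc (adjusted p = 0.0552 without replicate 1 and 0.0790 without replicate 2) and in the fit of all 6 groups (adjusted p = 0.164). Pcdhga12 missed it without replicate 1 of 9.0 dpc (adjusted p = 0.0729), without replicate 2 of 9.5 dpc (0.101), in the DESeq2 test (0.143) and in the fit of all 6 groups (0.312).

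Genes of neurons rose over the same interval. All 10 neuron markers were higher at 9.5 dpc, with a median log2 fold change of 3.22 beside -0.02 for all genes, and none was at 0. Their summed level was 124 to 138 CPM at 9.0 dpc and 927 to 994 CPM at 9.5 dpc. Of 8 neural progenitor markers 6 rose (330 to 368 CPM summed at 9.0 dpc, 1467 to 1637 CPM at 9.5 dpc), and all 4 surface ectoderm markers fell (222 to 227 CPM to 31.6 to 34.1 CPM). The part of these cell types in the protocadherin change was not tested. The chemoreceptor rate was 0.138 and 0.146 CPM per kb at 9.5 dpc and 0.150 and 0.151 at 9.0 dpc.

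**Figure D4:**
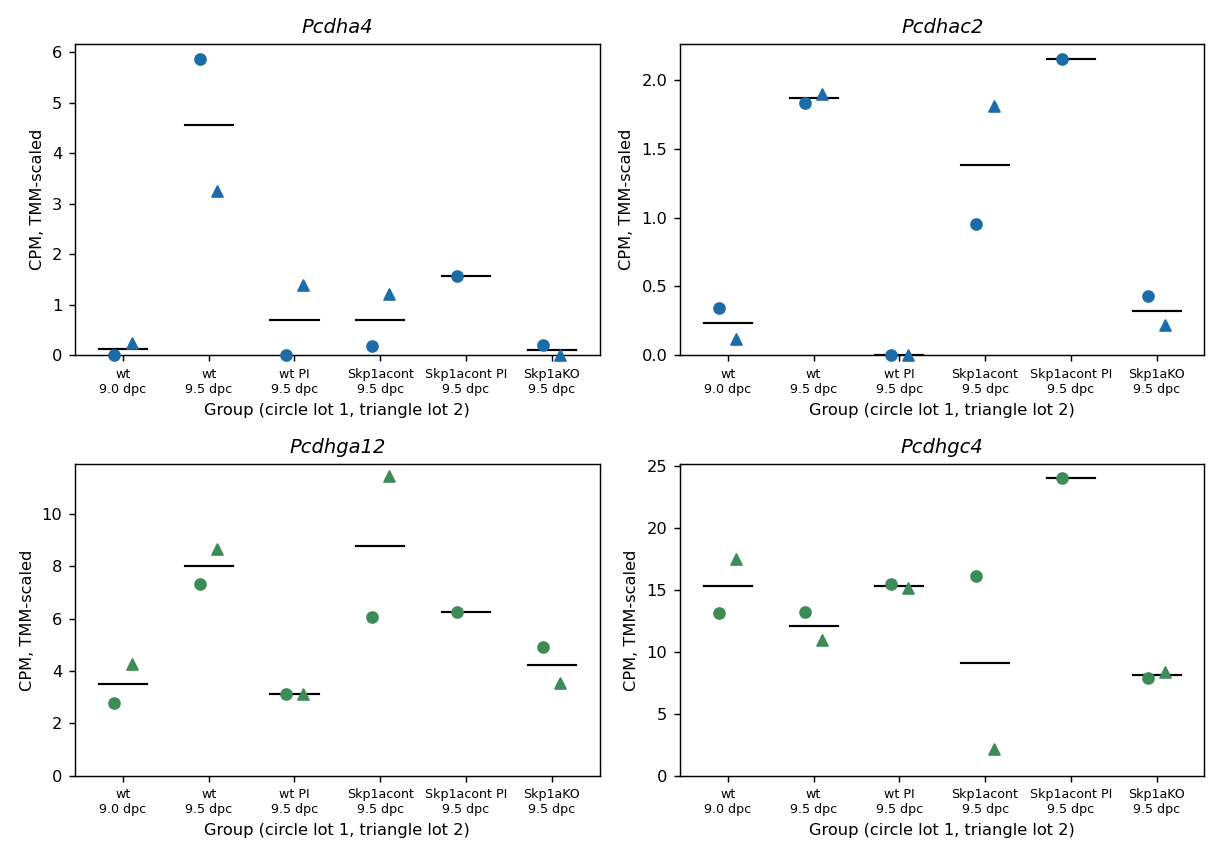
TMM-scaled CPM of Pcdha4, Pcdhac2, Pcdhga12 and Pcdhgc4 in each library (circles lot 1, triangles lot 2) by group, with the group mean as a bar. Pcdha4 and Pcdhga12 are higher in wt at 9.5 dpc than at 9.0 dpc or with PI, while Pcdhgc4 stays between 10.96 and 17.5 CPM across wt and is most spread between the Skp1acont libraries.

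The wt PI libraries were compared with wt at the same stage. Pcdhga12 fell with PI, to 3.1 and 3.12 CPM from 7.34 and 8.66 CPM, a log2 fold change of -1.38 ± 0.30 (adjusted p = 0.00757). It was the only member called of 4 tested, in a comparison that called 28% of genes and 12.4% as lower. Pcdha4 was at 0 and 1.40 CPM with PI, below both wt libraries, with a log2 fold change of -2.12 ± 0.75 (adjusted p = 0.0670). With the lot as a replicate block, Pcdha4 passed as well (log2 fold change -1.95 ± 0.64, adjusted p = 0.0309). Without the filter on low counts, Pcdha4 (adjusted p = 0.00165) and Pcdhac2, which had 0 and 0 counts with PI, were called lower (adjusted p = 0.000126). Pcdhgc4 was at 15.5 and 15.2 CPM with PI, a log2 fold change of 0.37 ± 0.19 (adjusted p = 0.191), and Pcdhb14 at 1.38 and 2.04 CPM changed by -0.41 ± 0.58 (adjusted p = 0.671).

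The call did not hold without either replicate 2 library. Pcdhga12 had an adjusted p of 0.0792 without wt PI replicate 2 and of 0.0595 without wt replicate 2, at log2 fold changes of -1.39 and -1.27, and of 0.0667 in the DESeq2 test. Of the 10 neuron markers 9 fell with PI (summed level 340 to 343 CPM against 927 to 994 CPM), as did 6 of 8 neural progenitor markers (462 to 484 CPM against 1467 to 1637 CPM). Their part in the change of Pcdhga12 was not tested.

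The libraries labelled Skp1aKO were then compared with wt at 9.5 dpc, the contrast nearest to the subject of the series. Of 34 members that passed the filter in the fit of all groups, 8 were called, with 7 higher and Pcdha4 lower. This share of 23.5% lay under the 36.4% of all 18837 genes called, of which 17.6% were higher and 18.7% lower. Here 23 members did not pass the filter, and many that did passed through the libraries with a Skp1a label, where they are high. Positive values against wt are thus partly set by the filter, for the members and for the chemoreceptor genes. All 16 tested beta members had a positive log2 fold change, with a median of 2.17, beside 0.24 for all genes. The 1045 chemoreceptor genes tested had a median of 2.20, with 480 of them called higher and 0 lower.

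Of the beta genes, Pcdhb22 was at 8.13 and 6.18 CPM in Skp1aKO and at 1.1 and 0.676 CPM in wt, a log2 fold change of 3.08 ± 0.59 (adjusted p = 0.00746). Pcdhb5 was at 5.14 and 4.86 CPM against 0.734 and 0.541 CPM, a log2 fold change of 2.99 ± 0.74 (adjusted p = 0.0168). Pcdhb13 at 3.64 and 3.31 CPM against 0.734 and 0.541 CPM changed by 2.47 ± 0.87 (adjusted p = 0.0489). In these 3 genes, as in all 16 tested beta members, both Skp1aKO libraries were above both wt libraries. The share of all genes for which this held is not given here. The last beta call was Pcdhb18, with 14 counts against 1, a ratio of 15.4 with a counting interval of 2.34 to 651 (adjusted p = 0.0446). Pcdhb14 at 5.78 and 9.72 CPM (log2 fold change 1.70 ± 0.74, adjusted p = 0.0896) and Pcdhb16 at 2.78 and 2.21 CPM (1.80 ± 0.81, adjusted p = 0.0995) did not pass. With the lot as a replicate block, Pcdhb14 did pass (log2 fold change 1.88 ± 0.52, adjusted p = 0.0225). So did Pcdhb4 (5.52 ± 1.81, adjusted p = 0.0415) and the gamma gene Pcdhga9 (2.30 ± 0.74, adjusted p = 0.0357), which the main fit did not call.

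Among gamma genes, Pcdhgb6 was at 8.35 and 7.07 CPM in Skp1aKO and at 0 and 0.676 CPM in wt, a log2 fold change of 4.0 ± 0.90 (adjusted p = 0.0123). Pcdhgb4 was at 4.49 and 3.31 CPM against 0.367 and 0.676 CPM (2.73 ± 0.82, adjusted p = 0.0299). The C-type gene Pcdhgc5 was at 3.21 and 2.43 CPM against 0.734 and 0.406 CPM (2.38 ± 0.81, adjusted p = 0.0444). For these 3 genes too the groups did not overlap. With 2 libraries against 2, that held for 31 of the 34 tested members, called or not, so it does not set the called genes apart. The share of all genes without overlap is not given here, so the count cannot set the members apart from other genes either. The gamma members highest in wt were not called. Pcdhgc4 was at 7.92 and 8.39 CPM against 13.2 and 10.96 CPM, a log2 fold change of -0.55 ± 0.62 (adjusted p = 0.473), which was 0.25 when scaled by library totals in place of TMM. Pcdhga12 was at 4.92 and 3.53 CPM against 7.34 and 8.66 CPM (-0.93 ± 0.42, adjusted p = 0.0998). Pcdhgc3 differed by 0.20 ± 0.89 (adjusted p = 0.862) and Pcdhgb5 by 0.99 ± 0.69 (adjusted p = 0.255).

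Pcdha4 fell. It had 1 count in the libraries labelled Skp1aKO and 40 in wt, a 36.4-fold difference with a counting interval of 6.16 to 1472, and a log2 fold change of -5.08 ± 1.43 (adjusted p = 0.0251). The second C-type alpha gene Pcdhac2 had 3 counts against 19 (log2 fold change -2.44 ± 0.91, adjusted p = 0.0624), and Pcdha1 differed by 0.80 ± 1.21 (adjusted p = 0.596). Neuron markers were lower as well, 6 of 10, with a summed level of 245 to 460 CPM in Skp1aKO, and erythroid markers were lower in 6 of 8 (919 to 1297 CPM against 17699 to 23595 CPM). Of 6 endothelial markers 4 were lower, although the list's summed level was higher (642 to 1183 CPM against 184 to 474 CPM), and 2 of 6 mesenchyme markers were lower (175 to 184 CPM against 434 to 488 CPM). Their part in the difference was not tested.

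These calls were sensitive to 1 library at a time. Leaving out Skp1aKO replicate 1 or 2, or wt replicate 1 or 2, left 0, 1, 1 and 0 members called, where 1.91%, 4.62%, 9.12% and 1.53% of all genes were called. Taking Skp1acont replicate 2 out of the shared fit raised the number to 22 (19 higher, 3 lower) of 28 tested, with 67.9% of all genes called. The counts of members thus moved together with those of all genes. With the planned median chemoreceptor rate subtracted from every count, 9 members passed the filter and only Pcdhgb6 was called (adjusted p = 0.0424), while Pcdhb22 had an adjusted p of 0.0544. With the pooled rate, added after seeing the data, 8 passed and 2 were called, Pcdhb22 (adjusted p = 0.0409) and Pcdhgb6 (adjusted p = 0.0411), while Pcdha4 at a log2 fold change of -7.12 had an adjusted p of 0.0762.

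**Figure D5:**
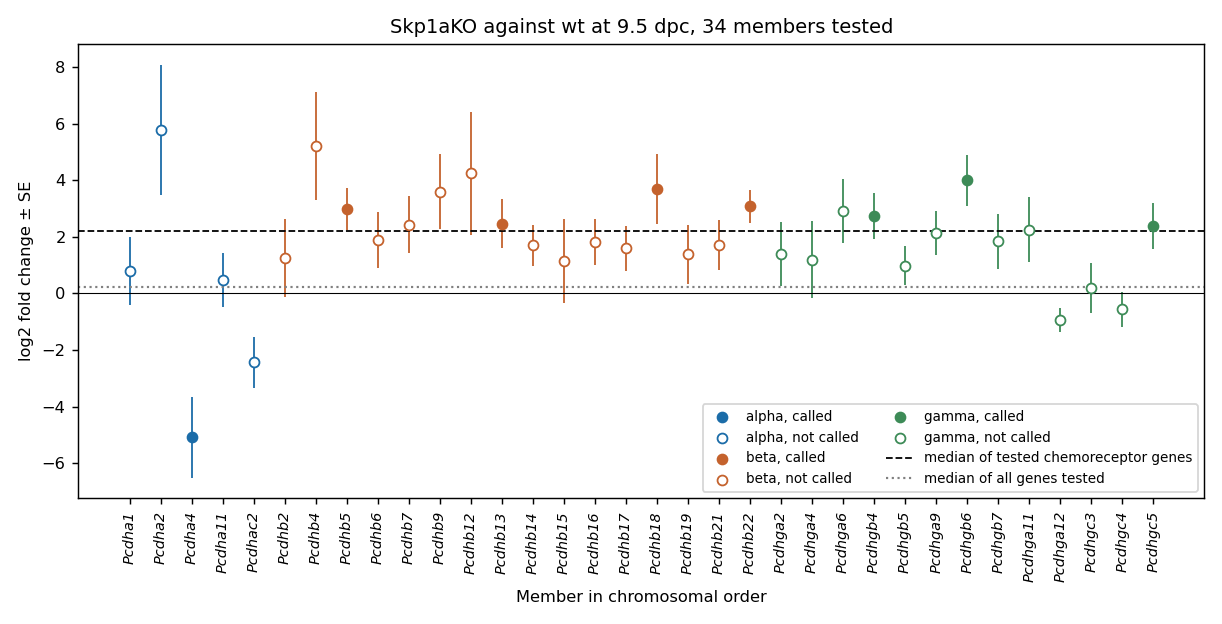
Log2 fold change ± SE of the 34 tested members between Skp1aKO and wt at 9.5 dpc, in chromosomal order, with filled points for members called at an adjusted p under 0.05. Beta members scatter around the median of the tested chemoreceptor genes (dashed line, 2.20), and Pcdha4, Pcdhac2, Pcdhga12 and Pcdhgc4 lie below 0 (Pcdhgc4 at 0.25 when scaled by library totals).

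The Skp1acont libraries were set against the same 2 wt libraries, which the previous comparison shares. In that contrast 6 of 34 members were called, all higher, or 17.6% beside 36.4% of all genes (19.3% higher). Pcdhb5 was at 3.80 and 10.6 CPM (log2 fold change 3.49 ± 0.74, adjusted p = 0.0115), Pcdhb22 at 3.80 and 9.06 CPM (2.90 ± 0.59, adjusted p = 0.0106) and Pcdhgb6 at 2.47 and 10.9 CPM (3.75 ± 0.91, adjusted p = 0.0163). Replicate 2 was the higher library each time, and both stood above wt. In this contrast the groups did not overlap in 21 of the 34 tested members, called or not. The share of all genes without overlap is not given here, so this count cannot set the members apart. Pcdhga9 at 1.52 and 5.74 CPM against 0.367 and 0.812 CPM changed by 2.39 ± 0.79 (adjusted p = 0.0409). Pcdhb18 had 17 counts against 1, a ratio of 20.1 with a counting interval of 3.14 to 838 (adjusted p = 0.0301), and Pcdhb4 had 9 counts against 0, at least 3.54-fold higher when 3 counts over the wt group are taken as the limit (adjusted p = 0.0445). The median log2 fold change was 2.27 over 16 beta members, 0.34 over all genes and 2.35 over the tested chemoreceptor genes, of which 497 of 1045 were called higher. In the fit of wt libraries only 1 beta member and 383 chemoreceptor genes passed the filter. Many genes of both sets thus passed through the libraries with a Skp1a label, so their positive medians are partly set by the filter. Neuron markers were lower in 6 of 10 (246 to 562 CPM summed) and erythroid markers in 6 of 8 (924 to 3285 CPM), and their part was not tested.

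Among the C-type members none was called in Skp1acont against wt with both libraries. Pcdhgc4 was at 16.2 and 2.11 CPM, on either side of the wt values, with a log2 fold change of -0.33 ± 0.61 (adjusted p = 0.671). Pcdhac2 at 0.95 and 1.81 CPM changed by -0.47 ± 0.79 (adjusted p = 0.641), Pcdhgc3 by 0.02 ± 0.92 (adjusted p = 0.986) and Pcdhgc5 by 2.11 ± 0.83 (adjusted p = 0.0673). Pcdha4 at 0.190 and 1.21 CPM was below both wt libraries, with a log2 fold change of -2.77 ± 1.16 (adjusted p = 0.0802). Without Skp1acont replicate 1 the number of members called was 23 (22 higher, 1 lower) of 32 tested, in a fit that called 74% of all genes. The calls then included the C-type genes Pcdhgc4, lower (log2 fold change -2.44, adjusted p = 4.7e-05), and Pcdhgc5, higher (2.57, adjusted p = 0.00779). Without Skp1acont replicate 2 it was 6 of 28 (39.1% of all genes), with Pcdha4 lower (-4.19, adjusted p = 0.00764) and Pcdhga6 called, and with Pcdhb4 and Pcdhga9 not among the calls. Without wt replicate 1 or 2 it was 0, where 2.76% and 0.0709% of all genes were called. With the planned median background subtracted, 2 of 9 were called, Pcdhb5 and Pcdhgb6, and Pcdhb22 was not (adjusted p = 0.0649). The pooled rate called all 3 of these, of 8 tested.

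The difference between Skp1aKO and Skp1acont compares the 2 Skp1a labels directly. By edgeR, 0 of 34 members were called, 1 had an unadjusted p under 0.05, and the whole fit called 0% of genes, with 1308 of 18837 at that unadjusted p. DESeq2 called 0 members as well. The median log2 fold change of the members was 0.05, beside -0.11 for all genes. Pcdhga12 had the smallest p, at 4.92 and 3.53 CPM in Skp1aKO and 6.08 and 11.5 CPM in Skp1acont, a log2 fold change of -1.03 ± 0.42 (adjusted p = 0.652). Pcdhac2 at 0.428 and 0.221 CPM against 0.95 and 1.81 CPM changed by -1.97 ± 0.94 (adjusted p = 0.765). Pcdhgc4, Pcdhgc3 and Pcdhgc5 changed by -0.22 ± 0.62, 0.18 ± 0.89 and 0.28 ± 0.69, each at an adjusted p of 1.

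The Skp1acont libraries set what this contrast could show. In each fit without 1 of them, the lone Skp1acont library has no replicate, so its spread is taken from the other groups. Without Skp1acont replicate 1, 2 of 32 members were called beside 31.3% of all genes, Pcdhga12 lower (log2 fold change -1.45) and Pcdhgc4 higher (1.92, adjusted p = 0.00203). Without Skp1acont replicate 2, 7 of 28 were called beside 27.3% of all genes: Pcdhb7, Pcdhb13, Pcdhb14, Pcdhgb4, Pcdhgb6 and Pcdhga11 higher, and Pcdhgc4 lower (-0.97, adjusted p = 0.0143). The sign of the Pcdhgc4 difference depended on which Skp1acont library was kept. The chemoreceptor rate was 0.229 CPM per kb in Skp1acont replicate 1, 0.531 and 0.572 in Skp1aKO and 0.980 in Skp1acont replicate 2.

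Over the whole family, 15 of 57 members had all 5 libraries with a Skp1a label above all 6 wt libraries, and none had them all below. They were 8 beta members (Pcdhb2, Pcdhb4, Pcdhb5, Pcdhb12, Pcdhb13, Pcdhb15, Pcdhb21 and Pcdhb22), 6 gamma members (Pcdhga6, Pcdhgb4, Pcdhga9, Pcdhgb6, Pcdhgb7 and Pcdhgc5) and Pcdhac1. The share of 26.3% stood beside 13.4% of all genes in the table and 27.96% of 2042 chemoreceptor genes.

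The genes known to act on the clusters were taken as a list of 22 regulators, among them CTCF, cohesin and its loaders, DNA methyltransferases and repressors. From 9.0 to 9.5 dpc in wt, 3 rose and 6 fell, with a median log2 fold change of -0.06, in a comparison that called 31.7% of all genes. Dnmt3b, the methyltransferase that marks protocadherin promoters, fell from 82.2 to 26.8 CPM (log2 fold change -1.59 ± 0.11, adjusted p = 1.23e-05), and the cohesin subunit Rad21 rose from 348 to 599 CPM (0.82 ± 0.10, adjusted p = 0.000354). Rest, a repressor of neuronal genes, fell by 0.64 ± 0.10 on the log2 scale (adjusted p = 0.00107). With PI, where 28% of all genes were called, 4 regulators rose and 3 fell, including Rad21 by -0.54 ± 0.10 (adjusted p = 0.00382). Between Skp1aKO and wt 2 rose and 2 fell, a smaller share than the 36.4% of all genes called. The smallest p was that of the cohesin cofactor Pds5b (48.3 against 165 CPM, log2 fold change -1.77 ± 0.30, adjusted p = 0.00535). In Skp1acont 2 rose and 6 fell (36.4% of all genes were called), with Pds5b at 56.2 CPM (-1.55 ± 0.30, adjusted p = 0.00945).

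Genes listed by name as lying around the clusters were read beside them. Their positions are not given here, and whether the whole region moved was not tested. Of 11 genes listed as flanking, 8 were tested in the wt fit, where Taf7 and Hars fell from 9.0 to 9.5 dpc (Taf7 from 147 to 87.9 CPM, log2 fold change -0.71 ± 0.14, adjusted p = 0.00492) and none rose. Of all genes there, 16.7% were called lower and 15% higher. With PI only Hdac3 was called, higher by 0.59 ± 0.10 (adjusted p = 0.00295), where 15.6% of all genes were called higher. In the fit of all groups 9 were tested. In Skp1aKO, Taf7, a subunit of the general transcription machinery that lies between the beta and gamma clusters, fell to 27.5 CPM from 87.9 CPM (-1.68 ± 0.38, adjusted p = 0.0125) and Hars2 fell by 0.87 ± 0.25 on the log2 scale (adjusted p = 0.0270), with no flanking gene higher. Of all genes in that comparison, 18.7% were called lower and 17.6% higher, so 2 of 9 lower is near the general share. The same genes were the calls in Skp1acont, at -1.19 ± 0.37 for Taf7 (adjusted p = 0.0353) and -0.99 ± 0.25 for Hars2 (adjusted p = 0.0189), where 17.1% of all genes were called lower.

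The protocadherins and large Fat cadherins outside the clusters were read more deeply. Their 19 genes summed to 188 to 208 CPM in wt at 9.0 dpc, 355 to 380 CPM at 9.5 dpc and 253 to 262 CPM with PI. From 9.0 to 9.5 dpc 8 of 13 tested rose and none fell, a median log2 fold change of 0.92. Of all genes there, 15% were called higher and 16.7% lower. Pcdh8, an adhesion gene of paraxial mesoderm and synapses, rose from 22.8 to 127 CPM (2.51 ± 0.15, adjusted p = 5.25e-06), and Fat3, which shapes neuronal dendrites, from 7.26 to 28.6 CPM (1.97 ± 0.16, adjusted p = 2.97e-05). With PI 5 of 13 fell and 1 rose, with Pcdh8 at 46.8 CPM (-1.44 ± 0.14, adjusted p = 0.000230), where 12.4% of all genes were called lower and 15.6% higher. In Skp1aKO 3 of 18 rose and 3 fell, near the general share, as 17.6% of all genes were called higher and 18.7% lower. Pcdh8 was at 33.3 CPM (-1.93 ± 0.32, adjusted p = 0.00501), and Pcdh19 and Pcdh7 fell by 1.55 ± 0.28 and 1.48 ± 0.29 on the log2 scale. Both Skp1aKO and Skp1acont libraries summed to 225 to 249 CPM for this list, below both wt libraries of 9.5 dpc.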

How the data were processed

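The authors deposited whole-number read counts per gene, with no normalization, for 36255 genes and 11 libraries. Per the submitters' processing notes, the build was GRCm38 and Trim Galore 0.6.7 was among the tools. Aligner, counter and strandedness: not given in the sources used here. Of the 12 labelled libraries, the other Skp1acont PI library was not analysed here, and Skp1acont PI enters no comparison of its own. Members were found by symbol. Exon lengths and positions came from GENCODE M21.

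Counts were tested with edgeR 4.0.16 (R 4.3.3): filterByExpr by group, TMM, robust quasi-likelihood F test, Benjamini-Hochberg adjustment over all genes tested, called under 0.05, two-sided. Comparisons with a Skp1a label used a fit of all 6 groups (18837 genes). Comparisons among wt used a fit of the 6 wt libraries (13126 genes), because earlier results showed that Skp1acont replicate 2 widens the shared spread. The fit was checked on simulated counts. The members and gene lists were chosen with earlier results of these data known. Named genes are the 5 C-type members, the 4 highest per cluster in wt CPM per kb, and called members. Of other lists, at most 4 genes of smallest p are named. The pooled background rate was added after seeing the data, because the planned median of the receptor genes lay under 1 count per kb in several wt libraries.

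Deviations from the group mean correlated between same-lot libraries in the 3 wt pairs (r from 0.297 to 0.343 across genes), and from -0.01 to 0.18 in the pairs with a Skp1a label. In wt, total counts were 3392251 to 4007663 in lot 1 and 9217568 to 11607085 in lot 2. Lot and depth therefore cannot be told apart there. No label says that lots pair the wt libraries, and this correlation cannot settle it. The values reported are from fits without this block. Among members, the blocked value changed the call of Pcdha4 with PI and of Pcdhb14, Pcdhb4 and Pcdhga9 in Skp1aKO, and is given there. It also called Pcdhb14 in Skp1acont against wt (log2 fold change 1.47 ± 0.52, adjusted p = 0.0486). Alternatives were other scalings and filters, the DESeq2 1.42.0 Wald test, other fits, the lot as a block, subtracted background and leaving out each library.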

Additional observations from a re-analysis of the deposited data

Results flagged for a closer look

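The single Skp1acont PI library entered no contrast of its own. It was part of the fit of all 6 groups and of the values over all libraries with a Skp1a label. Pcdhgc4 stood at 24.1 CPM in it, with an exact 95% counting interval of 20.0 to 28.7. This is above both Skp1acont libraries, the higher of which was at 16.2 CPM, and above all 6 wt libraries. Because there is 1 library, the difference has no replicate check. In the same library the chemoreceptor rate was 0.249 CPM per kb, and Pcdhgc4 is the only member whose interval lay above both Skp1acont libraries and the limit that a count of 0 allows.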

How the results depend on the processing

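Counts of called members moved more with the processing than their directions did. For Skp1aKO against wt, with 8 called, the count was 16 with library totals in place of TMM, 5 by DESeq2, 13 in a fit of the 2 groups alone, 1 or 2 with the median or pooled background subtracted, 22 without Skp1acont replicate 2 in the fit, and 0 to 1 when each compared library was left out (the lone library of that group then borrows its spread from the other groups). For Skp1acont against wt, with 6 called, it was 15 with library totals, 0 in the fit of 2 groups, 2 or 3 with background subtracted and 0 to 23 in the leave-outs. Between Skp1aKO and Skp1acont, 0 were called and the leave-outs gave 0 to 7. For wt 9.5 against 9.0 dpc, with 2 called, the count was 1 by DESeq2, 4 without a filter and 0 in the fit of all 6 groups, with 0 to 2 in the leave-outs. For wt PI against wt, with 1 called, it was 0 by DESeq2, 3 without a filter, 2 at a filter of 1 CPM in 2 libraries, 2 with the replicate block, 0 in the fit of all 6 groups, 2 with either background subtracted and 0 to 2 in the leave-outs. The replicate block gave 11 for Skp1aKO and 7 for Skp1acont against wt, 0 between those labels and 2 for wt stages.

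Over all genes, Skp1aKO against wt had a median log2 fold change of 0.24 with TMM, 0.47 with DESeq2 size factors and 1.03 with library totals, so values against wt shift by that much with the scaling. With totals, 36.1% of all genes were called higher of 43.6% called, against 17.6% of 36.4%. Some C-type members changed sign. With library totals, Pcdhgc4 was at 0.25 and 0.35 in Skp1aKO and Skp1acont against wt, and Pcdhac2 at 0.28 in Skp1acont. In Skp1acont against wt, the leave-outs ran from -2.44 to 0.57 for Pcdhgc4 and from -0.33 to 0.51 for Pcdhgc3, the positive and negative end respectively without Skp1acont replicate 2, and Pcdhgc3 was at -0.12 without a filter. Between Skp1aKO and Skp1acont they ran from -0.97 to 1.92 for Pcdhgc4, -0.27 to 0.68 for Pcdhgc3 and -0.12 to 0.73 for Pcdhgc5, with the sign change without Skp1acont replicate 1. The cause was not tested.

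On exon length that no other gene shares, the Skp1aKO and wt 9.5 dpc levels were 0.321 and 0.346 CPM per kb for alpha (0.130 and 0.140 on whole exons), 0.118 for beta in wt (0.114) and 0.834 and 0.496 for gamma (0.419 and 0.249). Scaled by library totals the levels per kb were 0.183 and 0.113 for alpha, 0.725 and 0.0918 for beta and 0.585 and 0.200 for gamma. Called genes kept their direction in every alternative that tested them. At 0.323 to 1.1 CPM for 3 counts, 23 members were not tested against a Skp1a label.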

Other observations

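Proteins that work with protocadherins were read as a list of 9 genes. Of all genes, 15% were called higher and 16.7% lower from 9.0 to 9.5 dpc, and 15.6% and 12.4% with PI. With 8 or 9 genes tested, the counts below cannot say whether the list moved more than other genes. From 9.0 to 9.5 dpc 3 of 8 tested rose and none fell: Cyfip2 of the WAVE complex rose from 11.1 to 29.0 CPM (log2 fold change 1.42 ± 0.15, adjusted p = 0.000147), the sheddase Adam10 from 92.1 to 149 CPM (0.72 ± 0.11, adjusted p = 0.000886) and Wasf1 from 50.1 to 72.3 CPM (0.55 ± 0.11, adjusted p = 0.00498). With PI the same 3 genes fell, Wasf1 by 0.71 ± 0.11, Adam10 by 0.59 ± 0.11 and Cyfip2 by 0.72 ± 0.14 on the log2 scale, and Axin1 rose. In Skp1aKO against wt 2 of 9 fell (Wasf1 and Adam10) and 2 rose (Ptk2b and Celsr3). Of all genes there, 18.7% were called lower and 17.6% higher. The stage and PI comparisons share the wt libraries of 9.5 dpc, so their directions are not independent.

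Classical cadherins, which join cells through catenins, summed to 452 to 471 CPM in wt at 9.0 dpc, 638 to 661 CPM at 9.5 dpc and 196 to 343 CPM in the libraries with a Skp1a label. N-cadherin (Cdh2) rose from 212 to 406 CPM between 9.0 and 9.5 dpc (log2 fold change 0.97 ± 0.10, adjusted p = 0.000137), while E-cadherin (Cdh1) fell from 17.4 to 7.79 CPM (-1.07 ± 0.21, adjusted p = 0.00452). In Skp1aKO against wt 3 of 13 were called higher and 1 lower, with a median log2 fold change of 0.47. In Skp1acont 2 were higher and 2 lower, with a median of -0.03. Of all genes, 17.6% were called higher and 18.7% lower in Skp1aKO, and 19.3% and 17.1% in Skp1acont. Cdh11, a mesenchymal cadherin, was at 43.0 CPM in Skp1aKO and 32.3 CPM in Skp1acont against 162 CPM in wt (-1.91 ± 0.37 and -2.32 ± 0.38, adjusted p = 0.00796 and 0.00758). Of the 12 PRC2 genes, 2 rose and 4 fell in Skp1aKO and 2 rose and 6 fell in Skp1acont, in comparisons that each called 36.4% of all genes. The core subunit Eed was at 35.7 and 41.4 CPM in these groups against 135 CPM in wt (-1.92 ± 0.35 and -1.70 ± 0.35, adjusted p = 0.00652 and 0.0105). Its part in the protocadherin values was not tested.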
